A study of Drosophila melanogaster with 3 samples.

Results

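The regions described here are the intergenic peaks of the zinc finger protein CG6808 (Zaf1) that lay away from gene starts in whole Drosophila melanogaster prepupae. DNA was recovered by chromatin immunoprecipitation with an anti-GFP antibody and sequenced (ChIP-seq), from transgenic flies that carried CG6808 with eGFP at its C terminus, with both sexes pooled, in 3 biological replicates of 1 group. The stage given is prepupa, beside a labelled age of 24 days. Untagged flies were not analysed here. The peaks were chosen by the authors' signal and by position. From the 8091 peaks of the authors' reproducibility-filtered (IDR) list on the dm6 genome, the 300 of highest signal were left out. A peak was kept if its summit lay more than 500 bp from every annotated transcription start site (TSS) and outside every annotated gene body. This left 1391 peaks, 17.2% of the list and 17.9% of the 7791 peaks outside the 300 strongest. The others were 3456 intronic, 2680 promoter and 264 exonic peaks. A further 28 intergenic peaks were among the 300 strongest and are not members.

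A ChIP-seq peak is a place where DNA bound by the tagged protein was recovered more often than from a control, and its summit is the most covered base. In the compact fly genome, DNA outside genes holds enhancers, which raise transcription of genes at a distance, silencers, and insulators, which limit which genes an enhancer can reach. Zinc finger proteins bind DNA at short sequences. Whole animals were used, so binding in few cells and weak binding in many cells cannot be told apart. The design holds no comparison of conditions, and the comparisons below ask where these peaks lay, what sequence they held and how they differed from intronic peaks.

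Windows of 281 bp centred on 4 summits show the sequence at these peaks, and a short core is in capitals, written CACTG where it lies on the plus strand and CAGTG where it lies on the other. The first 2 are the strongest peaks of arms 2L, 3L, 3R and X with a core on each side that reads toward the summit, that is CACTG on its left and CAGTG on its right within 140 bp. The last 2 are the strongest peaks of those arms with no core within 140 bp. All are plus-strand sequence of the Release 6 (dm6) genome, 5′ to 3′, named by the protein-coding genes on their left and right.
COX7AL2/CG31668, chr2L:2199183-2199463: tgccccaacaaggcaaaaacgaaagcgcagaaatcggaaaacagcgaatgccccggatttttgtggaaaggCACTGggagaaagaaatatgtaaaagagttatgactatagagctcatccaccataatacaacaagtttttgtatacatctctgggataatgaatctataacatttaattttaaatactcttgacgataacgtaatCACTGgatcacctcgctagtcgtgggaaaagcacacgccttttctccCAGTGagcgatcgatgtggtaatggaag
Pex7/hry, chr3L:8668163-8668443: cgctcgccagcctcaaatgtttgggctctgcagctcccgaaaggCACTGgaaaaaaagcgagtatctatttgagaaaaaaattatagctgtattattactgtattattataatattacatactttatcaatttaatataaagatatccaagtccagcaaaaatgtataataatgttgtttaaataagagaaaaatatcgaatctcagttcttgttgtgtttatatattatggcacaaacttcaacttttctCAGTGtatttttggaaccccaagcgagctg
E(spl)m2-BFM/E(spl)m3-HLH, chr3R:26017849-26018129: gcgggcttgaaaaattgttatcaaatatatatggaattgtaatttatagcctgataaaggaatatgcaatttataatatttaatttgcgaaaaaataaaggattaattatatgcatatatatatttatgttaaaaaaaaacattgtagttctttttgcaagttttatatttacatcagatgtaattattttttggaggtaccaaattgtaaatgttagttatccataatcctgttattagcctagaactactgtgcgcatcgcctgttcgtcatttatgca
Gr93d/glec, chr3R:21849049-21849329: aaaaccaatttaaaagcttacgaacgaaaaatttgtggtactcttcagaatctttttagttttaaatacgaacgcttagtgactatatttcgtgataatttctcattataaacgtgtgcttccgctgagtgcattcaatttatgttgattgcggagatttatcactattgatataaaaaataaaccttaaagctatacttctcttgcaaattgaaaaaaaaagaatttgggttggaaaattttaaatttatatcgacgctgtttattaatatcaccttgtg

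The window between COX7AL2 and CG31668 held 3 cores. The peak between Pex7 and hry, the gene of the Hairy repressor, had signals of 685, 274 and 255 in replicates 1, 2 and 3. Without any core, the peak between E(spl)m2-BFM and E(spl)m3-HLH, both genes of the Notch-responsive Enhancer of split complex, had signals of 771, 385 and 324. Signals are the values of the authors' signal column. They were not scaled between lists, so they rank peaks within a list only.

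The peaks ran from a signal of 1505 to 152 in the IDR list, with a median of 272, against medians of 278 in intronic and 284 in promoter peaks. These signals are part of how the peaks were chosen and are given as a description. The strongest member stood at rank 311, while rank 300, which was left out, was itself an intergenic peak with a signal of 1531. At the lower end, the weakest member and the strongest intergenic region below the IDR cutoff both had a signal of 152.4. At the distance limit, the 62 members within 600 bp of a TSS had a median signal of 293, and the 48 peaks outside gene bodies at more than 400 and up to 500 bp had 292. The peaks were from 118 to 1445 bp wide, and 802 of them (57.7%) had the same width of 470 bp.

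Each replicate held most of these peaks. A summit within 100 bp was present in the full list of 30000 regions for 97.5% of members in replicate 1, 93.0% in replicate 2 and 93.9% in replicate 3. In lists cut to the 8091 strongest regions, 867 members (62.3%, 95% Wilson interval 59.8 to 64.8) were matched in all 3, against 2085 intronic peaks (60.3%, 58.7 to 61.9). With members split into 4 classes by signal, the share was 94.8%, 88.5%, 57.9% and 8.05% from the strongest to the weakest class, and the cut length of the lists bounds the last of these. The replicate lists had fed the IDR list, so these shares describe the peaks and are no independent check. With replicate 1, 2 or 3 set aside, 69.9%, 68.7% and 70.3% were matched in both others. Over the 1201 members with a match in all 3 full lists, Spearman's rho of their signals, given as a description across peaks, was 0.815 between replicates 1 and 2, 0.807 between 1 and 3, and 0.785 between 2 and 3. In equal-length lists without the 300 strongest, intergenic peaks by the same rule made up 16.0% of replicate 1, 19.0% of replicate 2 and 19.4% of replicate 3.

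The peaks were sparser than intronic peaks over the sequence that could hold them. Members numbered 38.1 per Mb over 36.5 Mb of eligible intergenic sequence, against 65.4 intronic peaks per Mb over 52.8 Mb of introns. The ratio was 0.583 (95% interval 0.548 to 0.621; exact conditional binomial test, two-sided, p = 5.43e-69), and the replicates' own peaks gave ratios of 0.595 ± 0.0421 (SD, n = 3 replicates). The test and its interval take peaks as independent. Another summit lay under 250 bp away for 17.8% of members and 18.3% of intronic peaks, so they are more independent there than in fact. Sequence in which no region was called at all counts as eligible here. Limited to 100 kb bins that held any region of the pooled list, a restriction added after the data were seen, the ratio was 0.651 (0.611 to 0.693). Annotated transposable elements held 4 member summits (0.288%), while they covered 10.8% of the eligible sequence. How well reads could be placed in repeats was not tested, and repeats stayed in the eligible Mb behind these ratios.

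Density fell with distance from gene starts although the nearest 500 bp had been excluded. The median member lay 3578 bp from the nearest TSS, with quartiles at 1515 and 7123 bp and a largest distance of 43197 bp. Members numbered 66.9 per Mb (exact Poisson interval 57.7 to 77.1) up to 1000 bp from a TSS. They numbered 58.7 per Mb (51.9 to 66.2) from there to 2000 bp and 47.2 (42.9 to 52.0) from 2000 to 5000 bp. From 5000 to 10000 bp the value was 44.9 (40.2 to 50.1), from 10000 to 20000 bp it was 27.2 (22.8 to 32.2), and beyond 20000 bp it was 6.55 (4.89 to 8.59). In the 100 kb bins with a region, the farthest class held 22.9 members per Mb. Intronic peaks fell in the same order, from 122 per Mb up to 1000 bp to 15.1 beyond 20000 bp.

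**Figure D1:**
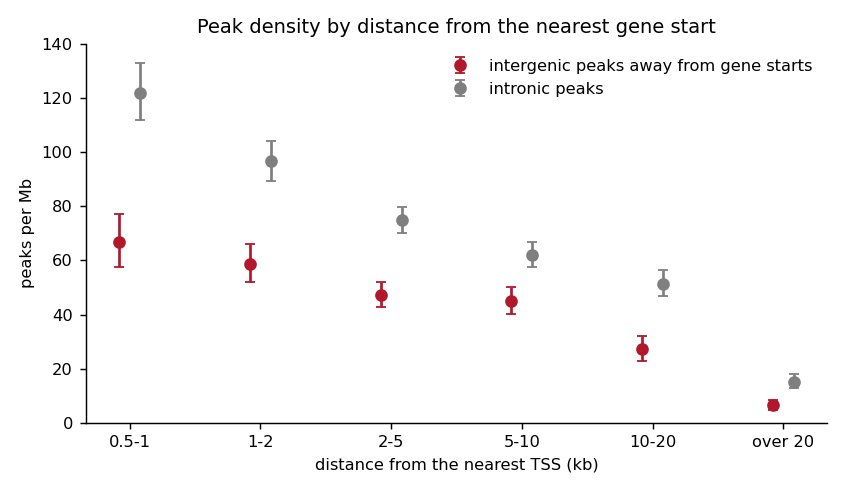
Peaks per Mb of eligible sequence (y axis) by distance of the sequence from the nearest annotated TSS (x axis, kb), for the 1391 intergenic peaks (red, left) and the 3456 intronic peaks (grey, right). Bars are exact 95% Poisson intervals that cover counting error only; members lay below intronic peaks in each class, 66.9 against 122 per Mb nearest to gene starts.

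Members were unevenly spread over the chromosome arms. They numbered 479 on 3L (52.8 per Mb), 312 on 3R (40.7), 268 on 2L (39.9), 194 on 2R (26.1), 134 on X (25.2) and 4 on chromosome 4 (16.3). Intronic peaks on the same arms numbered 67.3 per Mb on 3L, 57.2 on 3R, 66.2 on 2L, 67.3 on 2R and 75.5 on X. The density on X relative to 2L, 2R, 3L and 3R together was 0.622 (0.517 to 0.744) for members and 1.18 (1.09 to 1.28) for intronic peaks. Their quotient was 0.526 (0.432 to 0.639), and 0.590 (0.485 to 0.717) in bins with a region. In replicates 1, 2 and 3 the ratio on X was 0.663, 0.628 and 0.553 for intergenic peaks, and 1.17, 1.15 and 1.10 for intronic peaks over all eligible sequence. In bins with a region the ratio on X was 0.612 (0.509 to 0.732) for members and 1.04 (0.957 to 1.13) for intronic peaks, whose interval then includes 1. This contrast was chosen after the values by arm were seen and is given without a test. In bins with a region, 3L stood highest at 70.0 members per Mb, against 38.9 to 46.9 on 2L, 2R and 3R.

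**Figure D2:**
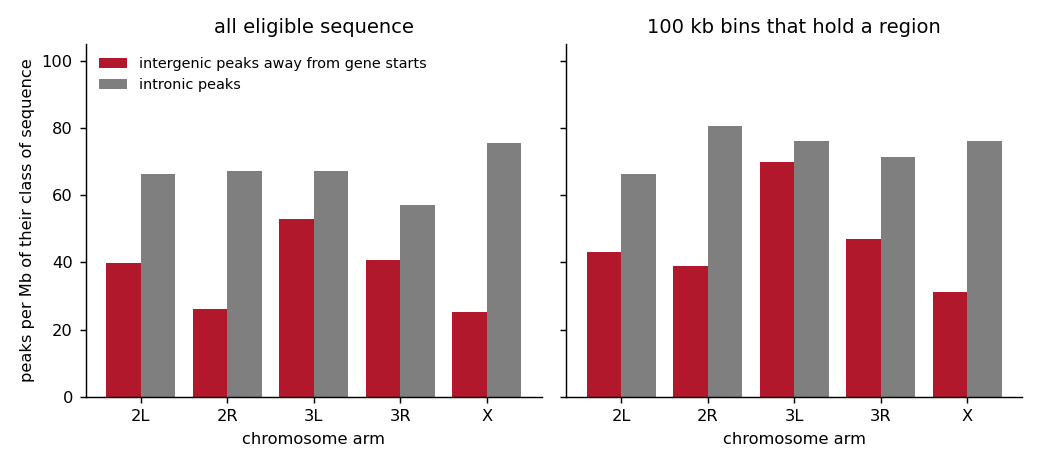
Peaks per Mb of their own class of sequence (y axis) on each chromosome arm (x axis), for intergenic peaks away from gene starts (red) and intronic peaks (grey); chromosome 4, with 4 members, is left out. The left panel counts all eligible sequence and the right one only 100 kb bins that held a region of the pooled list; members were lowest on X in both, at 25.2 and 31.1 per Mb.

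Of 6528 gaps with eligible sequence, 693 held a member, 406 of them 1 only, while 50 gaps with 5 or more held 386 members. A member was present in 1.61% of gaps with up to 1000 bp of eligible sequence, in 32.5% of those with 10000 to 30000 bp, and in 2 of 27 gaps with more than 100000 bp. Longer gaps have more room for a peak, and per Mb of eligible sequence members numbered 57.0 in gaps with up to 1000 bp, 48.0 in those with 10000 to 30000 bp and 0.508 in those with more than 100000 bp. Gaps were also sorted by the direction of the genes beside them. Between head-to-head genes, which are transcribed away from the gap, members numbered 49.9 per Mb (369 members), against 36.9 per Mb in other gaps. The ratio was 1.35 (1.20 to 1.53; exact test, adjusted p = 3.84e-06 over 3 gap families), and the replicates gave 1.40, 1.39 and 1.30. This test, like those of the other gap families below, takes members as independent, although many shared a gap. The head-to-head gaps from NijA to CG43245 and from Aps to lncRNA:CR45248 held 26 and 11 of the 369 members. Whether the ratio rests on a few such gaps was not tested. Gaps between tail-to-tail genes held 34.9 per Mb against 41.3 elsewhere (ratio 0.844, 0.743 to 0.957; exact test, adjusted p = 0.0112). Tandem gaps held 37.9 per Mb against 41.6 elsewhere (ratio 0.912, 0.820 to 1.01; exact test, adjusted p = 0.0857). Stratified by distance to the nearest TSS, an alternative added after the data were seen, the head-to-head ratio was 1.12, with a Mantel-Haenszel interval of 0.998 to 1.27 that includes 1. The tail-to-tail and tandem ratios were not stratified in this way. Head-to-head gaps held fewer members per Mb than other gaps at 1001 to 2000 bp (56.8 against 59.7) and 5001 to 10000 bp (42.7 against 45.9). They held more in the other distance classes. The contrast was widest from 20001 bp on, at 32.2 against 5.38 per Mb, with 19 members in head-to-head gaps. Most of these 19 lay in the gaps from NijA to CG43245 and from Aps to lncRNA:CR45248. The contrast in this class therefore rests largely on those gaps.

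The gap with the most members lay on 3L between NijA, which encodes the cell-surface protein Ninjurin A, and CG43245 (10696878 to 10771924). It held 26 members in 74047 bp of eligible sequence, or 351 per Mb, with signals from 1465 to 157 and a median of 268. Replicates 1, 2 and 3 had 22, 23 and 28 intergenic peaks there by the same rule. The gap between Qsox2 and Eip93F, an ecdysone-induced regulator of metamorphosis, held 12 members on 3R (21915547 to 21949113), and the replicates had 10, 16 and 17. On 3L, 11 members each lay between Aps and lncRNA:CR45248, between lncRNA:CR45036 and lncRNA:CR42755, and between CG17154 and vers. The gap between the noncoding genes was the densest of the 5, at 651 members per Mb. Members had another IDR summit at a median distance of 1643 bp, and 17.8% had one under 250 bp away, against 1558 bp and 18.3% for intronic peaks.

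The 25 strongest members had signals of 1253 or more. Of these, 23 had a match in all 3 full replicate lists, and 10 lay on 3L, 7 on 3R, 3 each on 2L and 2R, and 2 on X. The strongest lay on 3L between CG44004 and CG34253 (18077968 to 18078445), with signals of 718, 418 and 361 in replicates 1, 2 and 3. The second was the peak of the Enhancer of split complex shown above (3R, 26017734 to 26018253), and the third lay between the gustatory receptor gene Gr93d and glec, which encodes the carbohydrate-binding protein gliolectin (796, 379 and 309). A peak 3743 bp from ct, the gene of the homeodomain protein Cut, had signals of 761, 326 and 337. One at sty, the gene of the receptor tyrosine kinase inhibitor Sprouty, lay 6432 bp from its body, with 773, 237 and 332. One lay 721 bp from fng, which encodes a glycosyltransferase that modifies Notch (621, 385 and 364). A peak between Tollo, a Toll-family receptor gene, and Best4 lay 25167 bp from the nearest TSS and had signals of 663, 274 and 373. The peak between RYBP, a Polycomb-associated protein gene, and Ppa had signals of 599, 391 and 336. Others of the 25 lay beside RasGAP1, bdl, Nrt, which encodes the adhesion protein Neurotactin, Rh5, a rhodopsin gene, Cyp9f2, Osi21, pxb, yip3, Atet and heca, and between NijA and CG43245. Ranks of matched peaks ran from 236 to 595 in replicate 1, from 235 to 759 in replicate 2 and from 268 to 630 in replicate 3.

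The nearest protein-coding genes on either side of the members numbered 1046, which is 7.50% of 13945 genes (7.54% ± 0.408 in the replicates' own lists, SD, n = 3). Only 7856 of the 13945 had eligible intergenic sequence beside them, and the others had no place for a member. Lying next to a peak is a matter of position and says nothing of regulation. Genes with long intergenic sequence beside them have more room for peaks, so peaks per Mb of that sequence stand beside the shares, with 39.2 for all genes. The shares also count genes without eligible sequence. Such sequence lay beside 73 of the 79 patterning genes, 51 of the 93 ribosomal protein genes and 115 of the 179 chemoreceptor genes listed below. The gene lists were chosen with earlier results of these data known, and no list was tested.

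Among 79 genes listed as patterning and disc selector transcription factors, 45 (57.0%) lay next to a member, at 72.1 member flanks per Mb. The list also holds hh, which encodes a secreted ligand and not a transcription factor. That gene is counted in the list of secreted signals below as well. In the replicates the share was 55.3% ± 1.46 (SD, n = 3). The highest signals were beside hry, hh and ems. The peak 7456 bp on the 5′ side of hry was the strongest of 13 beside that gene. Beside ems, a homeodomain gene of head patterning, the strongest of 9 peaks had signals of 465, 214 and 232 in replicates 1, 2 and 3. Of 46 genes for secreted signals and their receptors, 16 (34.8%) lay next to a member, at 115 flanks per Mb, and the replicates gave 35.5% ± 1.26. The peak 10187 bp on the 5′ side of ptc, the Hedgehog receptor gene, had signals of 651, 286 and 318 and was the strongest of 6. The peak 7386 bp on the 5′ side of hh, the gene of its ligand, had signals of 540, 262 and 278 and was the strongest of 5. Beside Ser, a Notch ligand gene, the strongest of 9 peaks lay 7463 bp on the 5′ side, with signals of 449, 235 and 223.

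Of 37 ecdysone response genes, which react to the steroid hormone of metamorphosis, 8 (21.6%) lay next to a member, at 153 per Mb of only 0.163 Mb. E23, which encodes an ecdysone-induced transporter, had 1 peak 1574 bp on its 5′ side, with signals of 574, 221 and 203. Eip93F had 12, the strongest with signals of 441, 242 and 256, while Eip63E, a cyclin-dependent kinase gene, had 2, the stronger with 208, 94.0 and 88.6. Of 11 Hox cluster genes, 3 (27.3%) lay next to a member, at 26.5 per Mb, with bcd, Antp and abd-A carrying 2, 2 and 1, none above a signal of 396.8. Among 63 neuronal channel, adhesion and guidance genes, 16 (25.4%) did, at 37.5 per Mb, and the replicates gave 28.0% ± 3.99. The strongest peaks there were beside 18w, robo2, which encodes a receptor for the guidance cue Slit, and Fas3, an adhesion protein gene, which had 517, 208 and 271. Among 29 muscle structure genes, 5 (17.2%) did, at 34.9 per Mb, led by the Z-disc gene Zasp52, the titin-like gene sls and the actin gene Act57B.

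Of 30 insulator and architectural protein genes, 3 lay next to a member, and these were Psc, ph-d and ph-p, which encode Polycomb repressor subunits rather than insulator proteins. Their list had 9 member flanks on only 0.0413 Mb of eligible sequence, or 218 per Mb, and ph-d and ph-p shared their 2 peaks. Of 93 cytosolic ribosomal protein genes, 4 (4.30%) lay next to a member, at 10.3 per Mb, and RpL13, RpL22 and RpLP0 had no signal above 420.8. The share was 8.94% for 179 chemoreceptor genes, at 29.2 flanks per Mb, 9.17% for 120 cuticle protein genes, at 58.8 per Mb, and 9.64% for 83 cytochrome P450 genes, at 41.0 per Mb. Among them, Gr93d, Cpr72Ea and Cyp9f2 stood beside strong members, with signals of 1475, 1050 and 1340 in the IDR list. Gr93a had 13 members beside it and Gr93b had 6, and the strongest, which lay beside both, was matched in replicate 3 only. None of 26 serine protease genes lay next to a member, with 0.0441 Mb of eligible sequence beside them.

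The summits were poor in G and C. Median G and C content within 100 bp of the summit was 35.3% in members, against 36.8% in intronic peaks, 39.8% in promoter peaks and 42.8% in the 5677 intergenic regions below the IDR cutoff. In 171086 other intergenic windows that touched no peak it was 41.3%. In members it rose with distance, from 34.1% within 20 bp of the summit to 46.6% at 280 to 300 bp, where intronic peaks had 44.5%.

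Against those other intergenic windows, with G and C content held in bins of 5 percentage points, 253 of 8192 7-mers (3.09%) were higher in members and 65 (0.793%) lower (Cochran-Mantel-Haenszel test, Benjamini-Hochberg adjusted p under 0.05). Of the higher ones, 25 held the core, out of 48 7-mers that hold it. The highest odds ratios were those of CACTGAG (8.41% of members, 1.70% of windows; 5.73), CAGTGCA (12.4%, 3.13%; 4.92) and CAGTGTA (8.70%, 1.82%; 4.86). They were followed by ACTGAGA (8.20%, 1.86%; 4.59), which shares letters with the core, and GCACTGA (8.12%, 2.17%; 4.30), which holds the whole core. The lowest odds ratios were 0.0805 for ATGACCG, found in 1 member, 0.170 for CCAGGAC, 0.172 for GAGGACA, 0.193 for GACGATA and 0.195 for ATAGACG, each found in 3 members. Leaving out replicate 1, 2 or 3 gave 164, 182 or 195 higher and 21, 20 or 26 lower 7-mers.

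Against intronic peaks the differences were few. Here 13 7-mers (0.159%) were higher and 7 (0.0854%) lower by Fisher's exact test with adjustment over 8192. Of the 13, 12 held at most 1 G or C, and the other was CACTGAA, present in 7.84% of members and 4.72% of intronic peaks (odds ratio 1.72, Fisher's exact test, adjusted p = 0.0244). The next odds ratios were those of ATATATC (1.69), CAAATTA (1.60), AAATTAT (1.58) and TATAATA (1.58). Lower were ATATGCG (0.307), AGAGCGA (0.399), ACGCACA (0.485), AGCGAGA (0.491) and AAACAGT (0.513), among others. With G and C content held in bins, none was called in either direction, at 368 higher and 254 lower by the unadjusted Cochran-Mantel-Haenszel test, and CACTGAA had an odds ratio of 1.69. Without replicate 1, 2 or 3, at most 1 was called higher and 2 lower.

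A set of 22 motifs was written down by letters, with earlier results of these data known. Sought on both strands within 100 bp, 8 (36.4%) differed between members and intronic peaks, 3 higher and 5 lower (Fisher's exact test, adjusted over 23 tests). With the letters of each motif reversed, 1 was higher and 1 lower, and the latter was the A run, which reads the same reversed. The core CACTG was in 47.2% of members and 42.9% of intronic peaks (exact test, adjusted p = 0.0252), and in 27.2% of other intergenic windows. TATAAA, the TATA box letters, was in 35.2% and 30.7% (exact test, adjusted p = 0.0209), but its reversed letters AAATAT differed as well, with 49.2% and 43.3%. TAATTA, a homeodomain site, was in 15.7% and 13.1% (exact test, adjusted p = 0.0429). Lower in members were runs of 7 A (26.7% and 32.0%, exact test, adjusted p = 0.00666), TGTTTAC, a forkhead site (3.09% and 5.24%, 0.0126), and TGANTCA, the AP-1 site (3.52% and 5.50%, 0.0222). So were CACACACA (3.95% and 5.96%, 0.0222) and CGATA (17.2% and 20.4%, 0.0339), the core of BEAF sites. The reversed letters of CACACACA form the same repeat, so they are no control for it, and were in 3.67% and 5.50% (exact test, adjusted p = 0.0615). The runs of A stayed past the threshold in each of 10 alternatives and the forkhead letters in 8, including each replicate left out. The other 6 kept their direction in each alternative but were called in at most 5 of 10. The core was past the threshold in 3 of 10, the TATA box letters in 4, the AP-1 letters and CACACACA in 5 each, and the homeodomain and BEAF letters in 1 each. With a replicate left out, none of these 6 was called except the AP-1 letters in 1 of 3 cases. Neither the motif tests nor these alternatives held G and C content in bins. Its median was 35.3% in members and 36.8% in intronic peaks, and what this difference adds to the motif shares was not tested. In the replicates' own peaks the forkhead letters were in 3.06% ± 0.372 of intergenic and 5.39% ± 0.0974 of intronic peaks (SD, n = 3). A match is a run of letters and not a bound site. Windows of neighbouring summits share sequence, so these p-values take them as more independent than they are.

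Core copies faced the summit more often than away from it. At 60 to 140 bp from member summits, 545 copies read toward the summit and 318 away, a ratio of 1.71 (exact binomial interval 1.49 to 1.97; two-sided p = 1.01e-14). Neighbouring summits can count the same copy, and 17.8% of members had another summit under 250 bp away. The test takes the copies as more independent than they are. The core was among motifs chosen with earlier results of these data known. The p-values of the core and of its inward pair are therefore no independent support. The replicates' own intergenic peaks gave 1.64, 1.88 and 1.45. The ratio was 1.39 (1.27 to 1.52) at intronic peaks, 1.16 (1.04 to 1.29) at promoter peaks, 1.27 (1.17 to 1.38) at intergenic regions below the cutoff and 1.00 (0.982 to 1.02) about the middle of other intergenic windows. Among the 300 strongest peaks it was 0.835 (0.620 to 1.12). A core on each side that read toward the summit within 140 bp was present in 125 members (8.99%) and 237 intronic peaks (6.86%), an odds ratio of 1.34 (Fisher's exact test, adjusted p = 0.0378). Without replicate 1, 2 or 3 this was 1.23, 1.16 or 1.34, with adjusted p from 0.126 to 0.526, and no longer past the threshold. The opposite arrangement, both reading away, was in 3.67% of members and 4.34% of intronic peaks. Against intergenic regions below the cutoff, of which 3.58% held the inward pair, the odds ratio was 2.67 (exact test, adjusted p = 2.50e-14). Cores of a pair lay a median of 165 bp apart, with quartiles at 140 and 196 bp.

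Letters beside the core differed between the 2 directions. Counted from the C of CACTG as position 1, A stood at position 8 in 63.3% of the 545 member copies that read toward the summit and in 22.6% of the 318 that read away. At positions 10, 11 and 12 the share of A was 67.2%, 68.1% and 67.5% toward, against 20.4%, 24.8% and 22.6% away. Just before the core, T stood at position -2 in 58.7% toward and 33.6% away. A short form of this, CACTGNNA, was chosen from these windows after they were seen, so its values in members are a description. A copy that read toward the summit within 140 bp was present in 395 members (28.4%, 26.1 to 30.8), against 691 of 3456 intronic peaks (interval 18.7 to 21.4%) and 14.2% (12.9 to 15.6) of promoter peaks. It was in 14.9% (14.0 to 15.8) of intergenic regions below the cutoff and in 6.88% of other intergenic windows. In the replicates' own lists the share was 26.6% ± 1.77 of intergenic and 19.2% ± 0.531 of intronic peaks (SD, n = 3). Copies toward and away numbered 487 and 106 in members, a ratio of 4.59. In windows not used to choose the letters the ratio was 2.91 (2.54 to 3.34) at intronic peaks, 1.59 (1.37 to 1.86) at promoter peaks, 1.74 (1.56 to 1.93) at intergenic regions below the cutoff and 1.02 (0.991 to 1.04) in other intergenic windows. Inward copies lay a median of 81.0 bp from member summits, and 73 members (5.25%) had them on both sides, against 3.18% of intronic peaks. Both windows with the inward pair of cores printed above held such a copy.

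**Figure D3:**
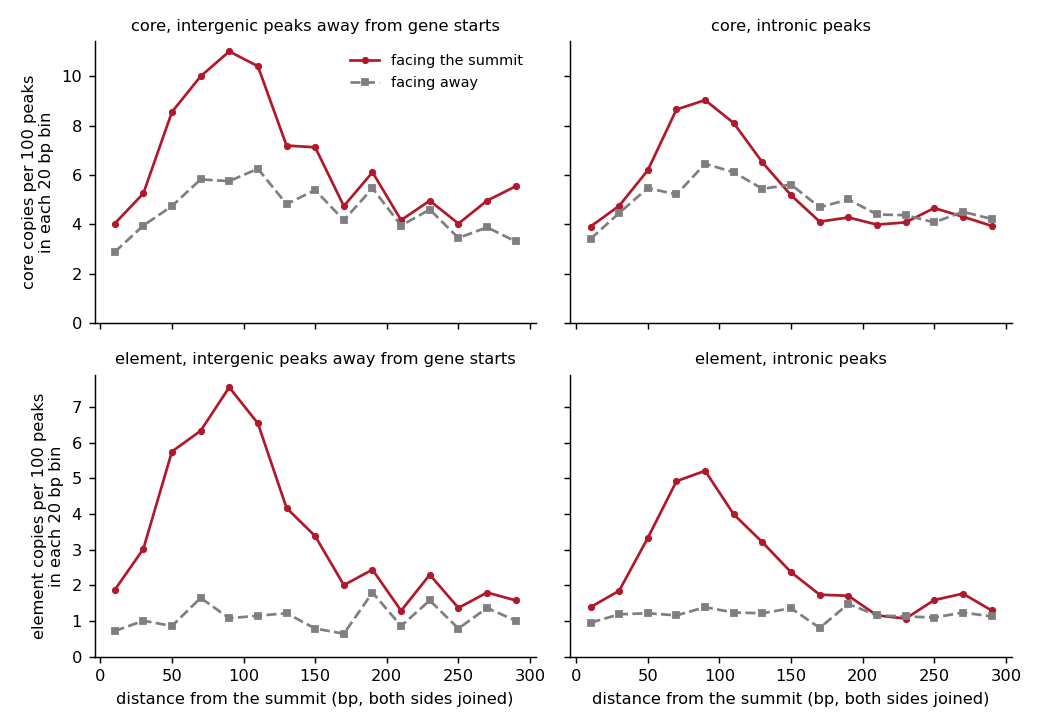
Copies per 100 peaks (y axis) in 20 bp bins of distance from the summit (x axis, bp, both sides joined) that read toward the summit (red, solid) or away from it (grey, dashed). The upper panels count the 5-letter core and the lower panels its extended form, the element, at the 1391 intergenic peaks (left) and the 3456 intronic peaks (right); inward element copies at 80 to 100 bp numbered 7.55 and 5.21 per 100 peaks.

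**Figure D4:**
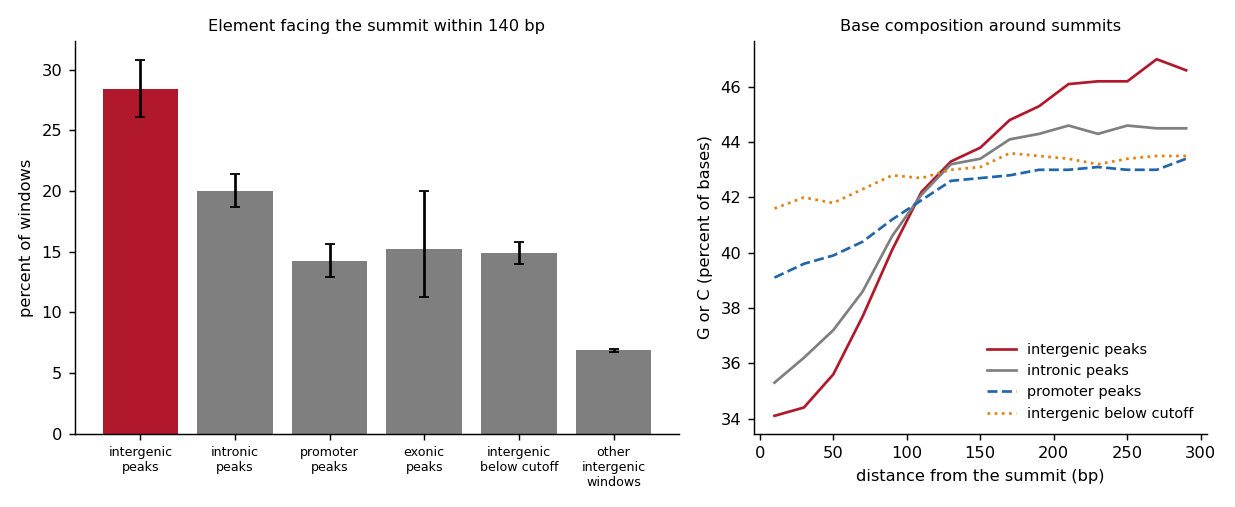
The left panel gives the percent of windows with an element copy that reads toward the centre within 140 bp (y axis) for members (red) and the other sets (grey), with 95% Wilson intervals; members had 28.4%, other intergenic windows 6.88%. The right panel gives G and C content (y axis, percent of bases) by distance from the summit (x axis, bp) for 4 sets of regions; members ran from 34.1% at the summit to 46.6% at the far end.

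Members that held an inward CACTGNNA copy had somewhat higher signals than those without. In replicate 1 the median signal was 159 with the copy and 140 without, in replicate 2 it was 75.1 and 67.2, and in replicate 3 it was 78.5 and 69.0. The ratio of medians was 1.13 ± 0.0117 (SD, n = 3 replicates), while the ranges overlapped widely. Of the 25 strongest members, 8 held such a copy, 18 held any core within 140 bp and 1 held the inward pair of cores. Median signals of members and intronic peaks had a ratio of 0.994 ± 0.0365 over the replicates. Only matched peaks enter these medians, in replicate 2 378 of 395 members with the copy and 916 of 996 without. All these peaks had been cut by the same signal limits, and CACTGNNA was chosen from member windows. The ratios are therefore a description.

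**Figure D5:**
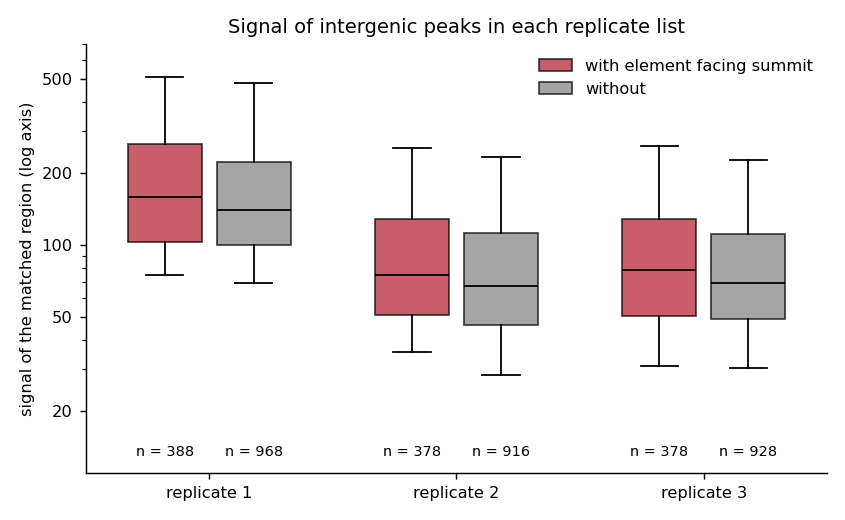
Signal of the matched region in each replicate's full list (y axis, log scale) for intergenic peaks with (red) and without (grey) an element copy that reads toward the summit within 140 bp. Boxes are quartiles with the median, whiskers the 5th and 95th percentiles and n the number of peaks; in each replicate the median with the element was the higher one, with wide overlap.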

How the data were processed

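The files were region lists of 3 biological replicates of anti-GFP ChIP-seq in 1 group. Per the deposited descriptions, replicate regions came from each alignment against a shared control, and the pooled and IDR lists were built from all replicates. No aligner or caller is named in the sources used. The deposited signal column served to rank regions within a list, and the deposited −log10 q-value column was read but ranked nothing. The deposited summit offsets gave positions. Depth is unknown, and intervals cover counting error only.

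The members, gene lists and motifs were chosen with earlier results of these data known. Genes, with transposable elements not counted as genes, were those of Ensembl release 115 and sequence that of Release 6, on 6 chromosome arms. Summits were matched within 100 bp, and windows reached 100 bp on either side. Tests were exact binomial, Fisher's and Cochran-Mantel-Haenszel tests, two-sided, with Benjamini-Hochberg adjustment at 0.05, and odds ratios have 0.5 added to each cell. The procedures were tested on simulated data. Named genes flank the 25 strongest members or the 5 gaps with most members, or are up to 3 genes a list of highest member signal, and 5 7-mers are named a comparison. Of the symbols in the gene lists, 1 was not matched. Alternatives covered distances, windows, strength, matching and each replicate left out, although a replicate left out had already shaped the IDR list. Versions were statsmodels 0.14.6, scipy 1.17.1, matplotlib 3.10.9, pandas 2.3.3 and numpy 2.4.6 under Python 3.11.15.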

Additional observations from a re-analysis of the deposited data

How the results depend on the processing

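Depth per replicate was unknown, so what the weaker peaks can show is limited by the list length. Of 135 alternative values, 79 kept their direction and their side of the threshold, or their size within set bounds. A further 7 kept their direction but lost the threshold, and 49, all counts or shares, moved out of those bounds. None reversed, although counts and shares have no direction to reverse. Members against intronic peaks per Mb stayed between 0.578 and 0.651 in every alternative run. The head-to-head ratio stayed past the threshold except when stratified by distance to the nearest TSS (1.12), and was 1.17 in 100 kb bins with a region. The odds ratio of the inward pair lost its call in the stronger part of the peaks (1.33), in peaks matched in all 3 replicates (1.19) and with cores within 100 bp (1.10), and ran from 1.16 to 1.34 with a replicate left out. The causes were not tested.

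7-mers higher and lower than in intronic peaks numbered 23 and 10 at 250 bp from every TSS, 8 and 3 at 1000 bp, 0 and 0 in the stronger part of the peaks, 0 and 1 in peaks matched in all 3 replicates, 0 and 0 with windows of 50 bp, 40 and 35 with 150 bp, 8 and 2 with 1 peak kept where summits lay within 250 bp, 0 and 0 with GC bins, and 0 to 1 and 0 to 2 with a replicate left out. Against other intergenic windows they numbered 299 and 100 at 250 bp, 128 and 7 in the stronger part of the peaks, 169 and 14 in peaks matched in all 3 replicates, 75 and 5 with windows of 50 bp, 425 and 212 with 150 bp, 556 and 437 with Fisher's exact test and no GC bins, and 164 to 195 and 20 to 26 with a replicate left out. Subsets hold fewer peaks.

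Written motifs past the threshold numbered 5 at 250 bp, 2 in the stronger part of the peaks, 1 in peaks matched in all 3 replicates, 3 with windows of 50 bp and 2 to 3 with a replicate left out. The share of members matched in all 3 replicates was 44.6% with matching within 50 bp, 74.3% within 250 bp, 32.8% with the list length divided by 2, 83.7% with double the length, and 68.7 to 70.3% over both others with a replicate set aside. The inward ratio of the core kept its call in each of its alternatives. The results on CACTGNNA and on X, added after the data were seen, kept their direction in the same settings. No paired analysis was possible because there is 1 group.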
